A study of Mus musculus with 15 samples.

Results

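The Hand1 and Hand2 loci were described by the Polycomb peaks called over them in 2 states of mouse E14Tg2A cells, early cardiac mesoderm precursors (MES) and the embryonic stem cells (ESCs) they were made from. The members were all peaks of 5 ChIP-seq lists that overlapped 1 of 2 fixed windows by at least 1 bp. The Hand1 window lay on chromosome 11 (57620000 to 57670000) and the Hand2 window on chromosome 8 (59770000 to 59830000), both in the mm9 build. Of 30692 peaks in the 5 lists together, 38 belonged to the loci, 10 at Hand1 and 28 at Hand2. The groups were MES ChIP for Cbx2, Ring1b, RYBP and Mel18, and ESC ChIP for Mel18. All cells were of the E14Tg2A line with no engineered change named for the ChIP samples. Per the labels, MES were obtained with BMP4 at typical amounts of 0.1 to 0.3 ng/ml, ESCs were kept in 2i medium with LIF, and each ChIP used 5 ug of antibody. Each list came from 1 sample, so no difference between lists had a replicate check and none was tested. Read depth was unknown. The mm9 position of each gene within its window was not checked here, since the annotation used was of another build.

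Hand1 and Hand2 encode related transcription factors of the basic helix-loop-helix class. They act in the forming heart, where both are needed for growth of the ventricles, and Hand1 is also needed in extraembryonic tissue while Hand2 also acts in the limb bud and branchial arches. Polycomb repressive complex 1 (PRC1) ubiquitinates histone H2A and holds many developmental regulators in a repressed state in stem cells. Ring1b is its catalytic subunit and Mel18 (Pcgf2) one of its alternative PCGF subunits. Canonical PRC1 holds Cbx2, whose chromodomain binds the histone mark left by PRC2, whereas RYBP replaces such CBX subunits in variant PRC1.

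In the RefSeq annotation of GRCm38.p6, the protein-coding genes on either side of Hand1 were Sap30l and Larp1, and the next annotated genes were Sap30l and the long non-coding RNA Gm32915. Hand2 lay between the long non-coding RNAs Hand2os1 and Gm34030, and its nearest protein-coding genes were Fbxo8 and Scrg1. The RefSeq promoter window of Hand2 is printed because CG dinucleotides are a known feature of Polycomb sites in mammals. It spans chr8:57320733-57321032 of GRCm38.p6, on the plus strand, from 250 bases before the start site to 50 after it. Capitals mark CG dinucleotides.
Hand2: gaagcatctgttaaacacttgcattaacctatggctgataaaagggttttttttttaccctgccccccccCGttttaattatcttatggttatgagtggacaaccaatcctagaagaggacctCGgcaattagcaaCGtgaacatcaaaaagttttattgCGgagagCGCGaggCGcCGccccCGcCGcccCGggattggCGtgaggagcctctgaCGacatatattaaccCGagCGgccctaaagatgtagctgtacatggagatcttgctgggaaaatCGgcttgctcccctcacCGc
This window held 17 CG dinucleotides, of which 3 lay in its first 150 bases and 14 in its last 150. The median over 32851 promoter windows of the same length was 7, and 31.4% held as many as Hand2 or more. Its GC content was 50.3%, against a median of 52.7%. The motif CANNTG, the E-box read by basic helix-loop-helix factors, reads the same on both strands. It was found 2 times in the Hand2 window, as CATCTG and CACTTG, and 39.6% of all windows held as many or more. Because builds differ, this sequence was not placed on the mm9 peaks.

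Both loci carried peaks of all 4 subunits in MES and of Mel18, the subunit mapped there, in ESCs, and the Polycomb-covered stretch at Hand2 was longer than that at Hand1 in each of the 5 lists. Covered length, the number of window bases under at least 1 peak, was 12960 bp at Hand1 and 40162 bp at Hand2 for MES Cbx2. For MES Ring1b it was 10901 bp at Hand1 and 39702 bp at Hand2. For MES RYBP it was 6835 bp at Hand1 and 18220 bp at Hand2. The difference between the loci was thus present for the catalytic subunit Ring1b, the canonical subunit Cbx2 and the variant subunit RYBP. For MES Mel18 the covered length was 11851 bp at Hand1 and 40932 bp at Hand2, and for ESC Mel18 it was 8901 bp at Hand1 and 22167 bp at Hand2. The ratio of Hand1 to Hand2 was lowest for Ring1b (0.275), then MES Mel18 (0.290), Cbx2 (0.323), RYBP (0.375) and ESC Mel18 (0.402). With single lists, the order of these ratios has no measured spread.

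**Figure D1:**
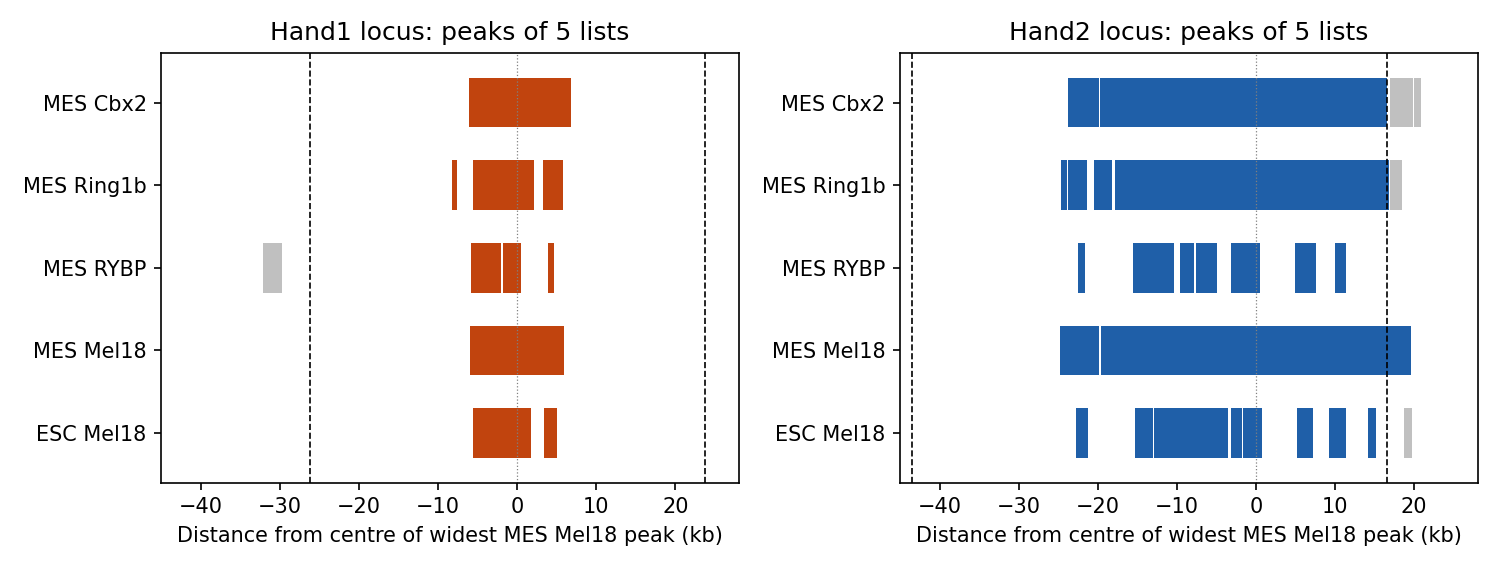
Peaks of the 5 lists (rows) at Hand1 (left) and Hand2 (right) against distance in kb from the centre of the widest MES Mel18 peak. Coloured bars are peaks that overlap the window (dashed lines), and grey bars are peaks outside it within 20 kb. Hand1 holds a shorter stretch in every list, unbroken in MES Cbx2 and MES Mel18 and split by gaps in the other lists. At Hand2 the MES Cbx2, Ring1b and Mel18 peaks run nearly without a break where MES RYBP and ESC Mel18 peaks are separated by gaps.

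Hand2 had more peaks as listed than Hand1 in each list, which did not hold in every list once close peaks were joined. Across lists within a locus the number of peaks did not follow the covered length. At Hand1 the lists held 1 MES Cbx2, 3 MES Ring1b, 3 MES RYBP, 1 MES Mel18 and 2 ESC Mel18 peaks. At Hand2 they held 2 MES Cbx2, 6 MES Ring1b, 7 MES RYBP, 3 MES Mel18 and 10 ESC Mel18 peaks. ESC Mel18 thus had the most peaks at Hand2, although MES Mel18 covered more of the window. Much of the split at Hand2 was into pieces close together. When peaks of 1 list within 1 kb were joined, MES Cbx2, Ring1b and Mel18 each formed 1 stretch at Hand2, while MES RYBP and ESC Mel18 each formed 5. At Hand1 the same joining left 1 stretch for MES Cbx2, 3 for Ring1b, 2 for RYBP, 1 for MES Mel18 and 2 for ESC Mel18. Hand2 then had more stretches than Hand1 only in RYBP and ESC Mel18, and fewer in Ring1b.

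**Figure D2:**
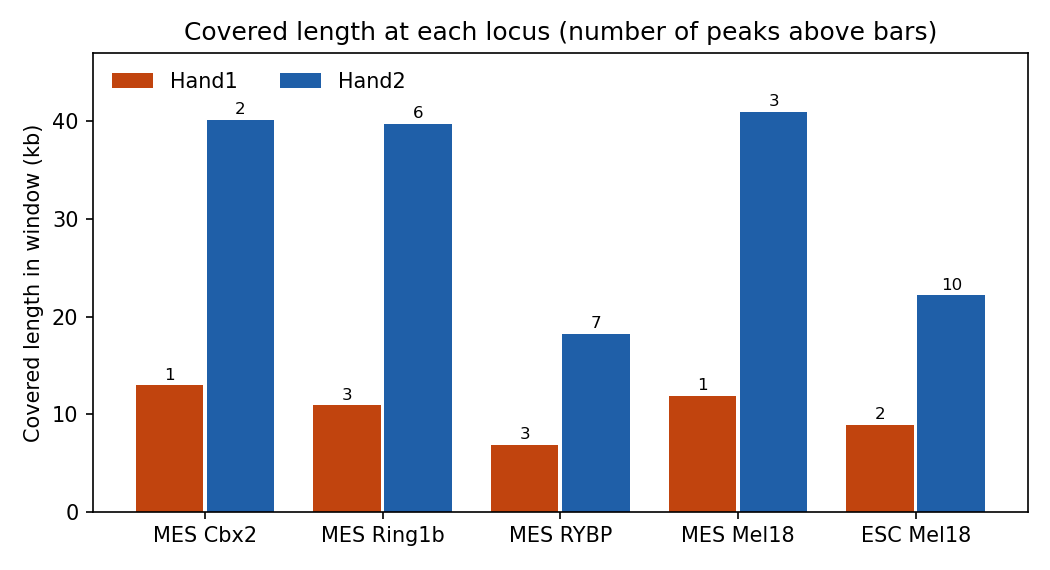
Covered length in kb within the Hand1 and Hand2 windows (bars) for each list, with the number of peaks printed above each bar and 1 sample per list. Every Hand2 bar is higher than its Hand1 bar, and the tallest, for MES Mel18 at Hand2, is 40.9 kb.

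At Hand1, Cbx2 formed a single peak of 12960 bp on chromosome 11 (57640104 to 57653063). MES Mel18 formed a single peak of 11851 bp (57640294 to 57652144), which lay wholly inside the Cbx2 peak. Cbx2 and MES Mel18 therefore each had an unbroken stretch at Hand1. Ring1b had a main peak of 7681 bp (57640598 to 57648278), a second of 2588 bp (57649456 to 57652043) and a short one of 632 bp (57638026 to 57638657) that overlapped no peak of another list. RYBP had peaks of 3821 bp (57640349 to 57644169), 2262 bp (57644363 to 57646624) and 752 bp (57650151 to 57650902). ESC Mel18 had peaks of 7310 bp (57640600 to 57647909) and 1591 bp (57649615 to 57651205). Ring1b and ESC Mel18 were thus broken at nearly the same place, with gaps of 1177 and 1705 bp between their main and second peaks, which Cbx2 and MES Mel18 peaks bridged.

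At Hand2, MES Mel18 had a peak of 39148 bp on chromosome 8 (59793905 to 59833052) that ran past the end of the window. Cbx2 had a peak of 36326 bp (59793750 to 59830075). Ring1b had peaks of 25540 bp (59795631 to 59821170) and 9010 bp (59821216 to 59830225), which nearly adjoined. The stretches of these 3 subunits had nearly the same extent. All 3 also had a separate peak before the main stretch, of 3961 bp for MES Mel18 (59789638 to 59793598), 3911 bp for Cbx2 (59789728 to 59793638) and 2450 bp for Ring1b (59789654 to 59792103). Shorter peaks lay around these, of 875 bp for MES Mel18 (59788641 to 59789515) and of 744, 761 and 1422 bp for Ring1b. The 7 RYBP peaks were between 975 and 5168 bp wide, the widest from 59797916 to 59803083. The 10 ESC Mel18 peaks were between 689 and 5329 bp wide, the widest from 59804632 to 59809960 and the highest-scoring from 59800599 to 59804611. RYBP and ESC Mel18 thus had no peak at Hand2 as wide as the main MES Mel18, Cbx2 and Ring1b peaks. This was not particular to Hand2, since the widest peak of the whole list was 14806 bp for RYBP and 19802 bp for ESC Mel18. At Hand2, 5 of the 7 RYBP and 8 of the 10 ESC Mel18 peaks were wider than the median of their list.

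Peak widths set the loci high within most lists. By width, the widest Hand1 peak ranked 140 of 3679 in Cbx2, 215 of 8641 in Ring1b, 298 of 7614 in RYBP, 127 of 4165 in MES Mel18 and 115 of 6593 in ESC Mel18. The widest Hand2 peak ranked 6 in Cbx2, 9 in Ring1b, 111 in RYBP, 3 in MES Mel18 and 232 in ESC Mel18. As listed, Hand2 thus had the wider top peak in every MES list. Hand1 had the wider top peak in ESC Mel18, at 7310 bp against 5329 bp for Hand2. However, the Hand2 ESC Mel18 peaks at 59800599 to 59804611 and 59804632 to 59809960 nearly adjoined. Together they spanned more than 7310 bp, so the order in ESC Mel18 depended on how peaks were split. On chromosome 8 the Hand2 peak was the widest of 175 Cbx2, 468 Ring1b and 218 MES Mel18 peaks. On chromosome 11 the widest Hand1 peak ranked 10 of 289 Cbx2 and 10 of 325 MES Mel18 peaks.

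**Figure D3:**
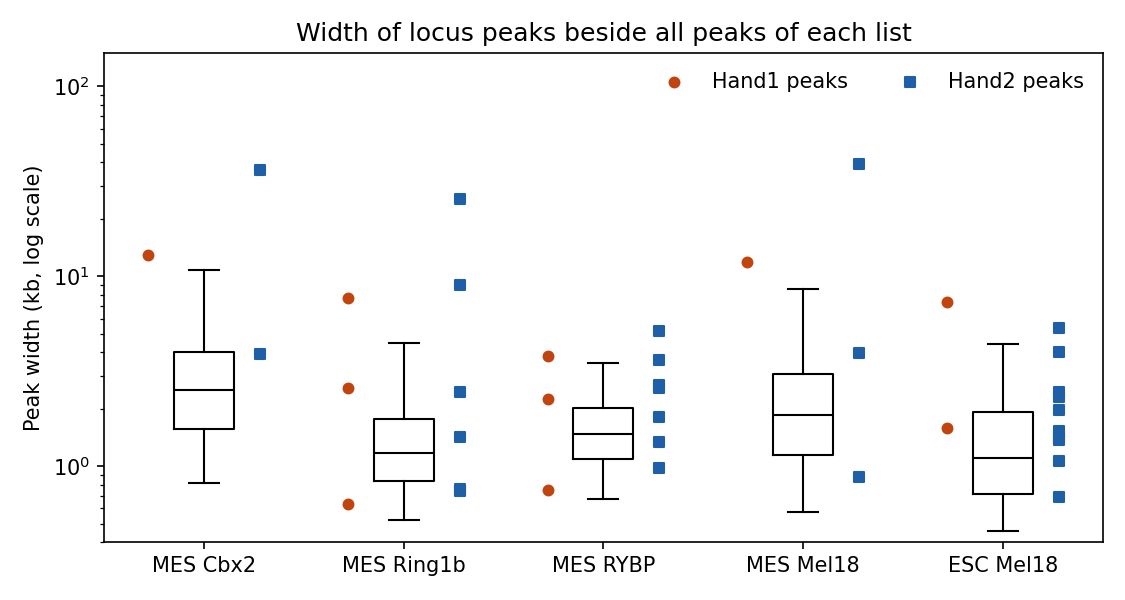
Width in kb (log scale) of each Hand1 peak (circles) and Hand2 peak (squares) beside all peaks of the same list, drawn as boxes with the median and quartiles and whiskers from the 5th to the 95th percentile. The widest Hand1 and Hand2 peaks lie above the upper whisker in every list, while the narrower peaks at both loci reach down into the range of the whiskers.

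The authors' score has no stated scale and was used only to rank peaks within a list. At Hand1, the highest-scoring peak ranked 381 of 3679 in Cbx2 (10.4% from the top), 432 of 7614 in RYBP (5.67%) and 2 of 4165 in MES Mel18. In Ring1b it ranked 13 with 284 peaks tied at 3100, and in ESC Mel18 it ranked 15 with 289 tied at 3100. As listed, Hand1 thus stood near the top of MES Mel18 and lower in Cbx2, where its peak was unbroken too. Its MES Mel18 score of 3208.78 lay just above 3100, where 360 peaks of that list were tied. Rank 2 may therefore not be a true order. At Hand2, the highest-scoring peak ranked 157 in RYBP (2.06%). It was among the peaks tied at 3100 in the other lists, which numbered 325 in Cbx2, 284 in Ring1b, 360 in MES Mel18 and 289 in ESC Mel18. By score, Hand2 therefore stood ahead of Hand1 in Cbx2 and RYBP, and the loci were tied in Ring1b and ESC Mel18. In MES Mel18, Hand1 was listed above Hand2, but with Hand2 among the peaks tied at 3100 this order cannot be read.

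Both loci also held weaker peaks. At Hand1, the lowest relative to its list was the RYBP peak of 752 bp, with a score of 51.99 and rank 7377 of 7614. The isolated Ring1b peak of 632 bp scored 62.26 and ranked 7066 of 8641. At Hand2, the lowest relative to its list was the ESC Mel18 peak of 689 bp (59822733 to 59823421), with a score of 53.40 and rank 6083 of 6593. The remaining Hand2 peaks of ESC Mel18 scored at or above the median of their list, so 9 of 10 were in its upper 50%. The same held for 5 of 7 RYBP and 4 of 6 Ring1b peaks, and for both Cbx2 and all 3 MES Mel18 peaks at Hand2.

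The Mel18 lists address how binding at these regulators stood after commitment to mesoderm, compared with ESCs. MES Mel18 covered 11851 bp and ESC Mel18 8901 bp at Hand1, a ratio of 1.33. At Hand2, MES Mel18 covered 40932 bp and ESC Mel18 22167 bp, a ratio of 1.85. MES Mel18 covered 100% of the bases under ESC Mel18 peaks within both windows, so no ESC Mel18 base there was without a MES Mel18 peak. The share of other regions with such full cover was not taken. Past the end of the Hand2 window, an ESC Mel18 peak (59832146 to 59833208) ran beyond the end of the MES Mel18 peak at 59833052. Over all merged regions, made by joining overlapping peaks of the 5 lists, MES Mel18 covered more than ESC Mel18 in 1903 of 2540 with Mel18 in both states (74.9%). The longer MES cover at both loci was therefore the common case.

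For comparison with these regions, each locus was taken by its longest merged region, which spanned 12960 bp at Hand1 (57640104 to 57653063) and 43701 bp at Hand2 (59789638 to 59833338). A region with a peak of every list, as both were, made up 15.7% of 12154 merged regions. By width, the Hand1 region ranked 159 and the Hand2 region 5 of these. The ratio of MES to ESC Mel18 was 1.33 in the Hand1 region and 1.86 in the Hand2 region, against a median of 1.24 over the 2540 regions (quartiles 0.999 and 1.61). A higher ratio than Hand1 was found in 41.9% of them and a higher ratio than Hand2 in 16.3%. Among 227 regions of 10 kb or more, a set added after the values were seen, the median was 1.38 and 98.2% were above 1. Long MES Mel18 cover can itself bring a region to this width, so a higher ratio is partly fixed by the choice of these regions. Of these wide regions, 57.3% exceeded Hand1 and 17.6% exceeded Hand2. Hand1 was thus near the middle of wide regions and Hand2 in the upper part.

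**Figure D4:**
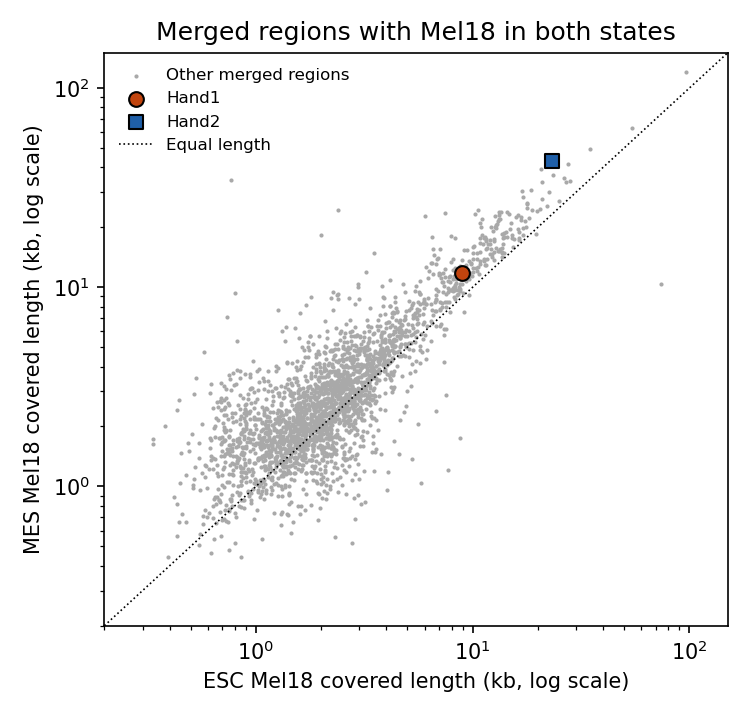
Covered length of MES Mel18 against ESC Mel18 in kb (log scales) for 2540 merged regions where both states had Mel18 peaks, with Hand1 (circle) and Hand2 (square) marked and a dotted line at equal length. Both loci lie above the line among the longest regions, Hand2 farther from it than Hand1.

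The bases under MES Mel18 and not under ESC Mel18 were divided between a gap and the edges at Hand1 and lay mostly between ESC Mel18 peaks at Hand2. At Hand1, the single gap of 1705 bp was covered wholly by MES Mel18, with 306 bp before and 939 bp after the ESC Mel18 peaks. At Hand2, the 10 ESC Mel18 peaks left 9 gaps with 15879 bp in all, of which MES Mel18 covered 98.1%. There MES Mel18 also covered 1892 bp before the first ESC Mel18 peak and 1300 bp after the last, up to the window's end. The other MES subunits covered these gaps to unequal extents. At Hand1, Cbx2 covered 100%, Ring1b 31.0% and RYBP 0 bp of the gap. At Hand2, Cbx2 covered 99.3%, Ring1b 91.8% and RYBP 6.80% of the gap bases.

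The MES lists address which PRC1 subunits accompanied Mel18 at the loci. Cbx2 peaks covered 100% of the bases under MES Mel18 at Hand1 and 97.6% at Hand2. Ring1b peaks covered 86.7% at Hand1 and 96.3% at Hand2. RYBP peaks covered 6835 of 11851 bp at Hand1 and 18220 of 40932 bp at Hand2. RYBP was thus found over part of the Mel18 stretch at both loci, and 100% of RYBP bases lay under MES Mel18 and Cbx2 peaks at both. These shares of bases were not set against those of other regions.

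In covered length, Cbx2 was 1.09 times MES Mel18 at Hand1 and 0.981 times at Hand2. Over 1911 merged regions with a peak of every list, Cbx2 covered more than MES Mel18 in 75.9%. The Hand2 value was 1.002 when the window was widened by 20 kb, since Cbx2 peaks resumed 327 bp after its last window peak, so the lengths of both at Hand2 were nearly equal. Ring1b was 0.920 times MES Mel18 at Hand1 and 0.970 times at Hand2, and it covered less than Mel18 in 76.9% of the regions. RYBP was 0.577 times MES Mel18 at Hand1 and 0.445 times at Hand2, and it covered less than Mel18 in 83.9% of the regions. The directions for Ring1b and RYBP were therefore those of most regions.

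In the merged region of each locus, the RYBP to Mel18 ratio was 0.577 at Hand1 and 0.423 at Hand2, against a median of 0.700 over the 1911 regions. It was higher than at Hand1 in 70.9% of them and higher than at Hand2 in 89.95%. Among 226 regions of 10 kb or more, a width that long Mel18 cover can also bring about, the median was 0.560, and 46.0% exceeded Hand1 while 79.7% exceeded Hand2. Set against wide regions, RYBP cover was thus middling at Hand1 and in the lower part at Hand2.

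By shared percent of the union of bases, RYBP peaks in MES resembled the ESC Mel18 peaks more than they did the MES Mel18 peaks. At Hand1, RYBP shared 6835 bp of a union of 11851 bp with MES Mel18, and 71.9% of the union with ESC Mel18. At Hand2, it shared 44.5% of the union with MES Mel18 and 73.7% with ESC Mel18. All 3 RYBP peaks at Hand1 and all 7 at Hand2 overlapped an ESC Mel18 peak, and all of them overlapped a MES Mel18 peak too. The share of all RYBP peaks with such overlap was not taken, so these counts may be the usual case. Of RYBP bases, 96.3% at Hand1 and 94.1% at Hand2 lay under ESC Mel18, against 100% under MES Mel18. The shared percent with MES Mel18 is thus only the ratio of the 2 lengths. The likeness therefore in part restates that RYBP and ESC Mel18 each covered fewer bases than MES Mel18. The greater likeness to ESC Mel18 was found in 68.6% of the 1911 regions and in 92.5% of the 226 regions of 10 kb or more, so it was the more common case, and the same limit on the choice of wide regions applies. Cbx2 and MES Mel18 peaks shared 91.4% of their union at Hand1 and 97.2% at Hand2, and Ring1b and MES Mel18 peaks shared 82.3% at Hand1 and 95.7% at Hand2.

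The bases held by all 5 lists made up similar shares of both loci. At Hand1 they summed to 6584 bp, 48.4% of the 13592 bp under any peak, in 3 segments of which the longest was 3570 bp (57640600 to 57644169). At Hand2 they summed to 17141 bp, 41.6% of 41238 bp, in 10 segments of which the longest was 2691 bp (59805854 to 59808544). As listed, the shared core of Hand2 was thus cut into more pieces, none as long as the longest at Hand1. Some pieces nearly adjoined at both loci, between 57644169 and 57644363 at Hand1 and between 59800507 and 59800599 at Hand2. The number and length of pieces therefore depended on how peaks were split. The shortest Hand1 segment, of 752 bp, was the RYBP peak that ranked 7377 of 7614 by score. Bases under exactly 3 lists were 11.9% of the stretch at Hand1 and 37.7% at Hand2. Bases under 1 list were 12.8% at Hand1 and 0.694% at Hand2.

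The distance to the next peak differed between lists and sides. The nearest MES Mel18 peaks outside lay 3724.8 kb before and 1064.7 kb after the Hand1 peak. The nearest Cbx2 peaks lay 3387.7 kb before and 1109.6 kb after it. Ring1b, RYBP and ESC Mel18 had closer neighbours after Hand1, at 169.6, 125.1 and 124.5 kb. Before Hand1, their nearest peaks lay 179.0 kb away for Ring1b, 23.92 kb for RYBP and 2357.2 kb for ESC Mel18. At Hand2, the nearest peaks before the locus lay 4625.7 kb away for Cbx2, 4627.2 kb for RYBP and 4624.1 kb for MES Mel18, against 686.4 kb for Ring1b and 1016.4 kb for ESC Mel18. After the last Hand2 peak in the window, the next peak lay 0.327 kb away for Cbx2, 0.248 kb for Ring1b and 3.445 kb for ESC Mel18. Peaks of these lists thus resumed past the window's end, in ESC Mel18 after a wider break. The next peak lay 305.3 kb away for RYBP. For MES Mel18 it lay 3869.4 kb away, counted from a last peak that ran past the window's end to 59833052.

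Merged regions with the pattern most like each locus were found by the greatest ratio of covered length over the 5 lists, taken in either direction, among 1909 other regions with a peak of every list. For Hand1 the 3 nearest were a region of chromosome 19 (59236795 to 59249478), one of chromosome 11 (85697782 to 85710464) and one of chromosome 15 (98600393 to 98613340), within 1.07, 1.09 and 1.12 times in every list. For Hand2 they were a region of chromosome 11 (96029548 to 96070094), one of chromosome 6 (6797386 to 6834299) and one of chromosome 9 (91244596 to 91286229), within 1.13, 1.19 and 1.19 times. Hand1 and Hand2 differed from each other by up to 3.96 times, and 686 regions were nearer to Hand1 than Hand2 was. Their likeness in having every subunit thus went with different extents.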

How the data were processed

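The peak lists of 5 ChIP-seq samples were used; 1 IgG ChIP-seq and 9 RNA-seq samples were not analysed here. Each list held 1 score per peak, deposited by the authors with peak names that carried the MACS tag, per the file headers and names. Reads were placed on mm9, and Bowtie and TopHat were named, per the submitters' processing notes. Caller settings, control library and pooling are not given in the sources used here. They and the unknown depth could change peak number, width and score. Scores started at 50 and piled up at 3100 in 4 of 5 lists, so they served only to rank peaks within a list, with rank 1 the highest.

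Peak starts are counted from 1. Covered length was cut at the window limits, while peak widths were not. Merged regions joined peaks of all lists that overlapped by at least 1 bp. No test was made, since each group had 1 sample. The windows, rules and comparisons were chosen with earlier results of these data known. Members were named by the window rule, and regions like them by the smallest difference in covered length, with 3 per locus. The tools were Python 3.11.15 with numpy 2.4.6, pandas 2.3.3, scipy 1.17.1 (binomial intervals) and matplotlib 3.10.9. The interval code was tested on simulated data, where the known MES to ESC Mel18 ratio came back in 2000 of 2000 regions, and against bedtools 2.31.1, with 0 of 12154 merged regions differing. Sequence and gene neighbours came from RefSeq on GRCm38.p6, where 1 of the 2 genes, Hand2, was matched by symbol in the promoter table.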

Additional observations from a re-analysis of the deposited data

How the results depend on the processing

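No paired analysis was possible because every antibody and state had a single list, and no replicate could be left out. With no spread to judge by, a ratio or length was taken as unchanged when it stayed within 1.5 times of its value and, for ratios, on the same side of 1. The alternatives were windows widened by 20 kb or narrowed by 5 kb on each side, only the 50% of peaks with the higher scores, lists cut to 3679 peaks, peaks within 1 kb joined, the longest merged region alone and, added after the data were examined, whole peaks not cut at the window. All 35 recomputed ratios of Hand1 to Hand2, 14 of MES to ESC Mel18, 14 of Ring1b and 14 of RYBP to MES Mel18 were unchanged by this rule. Those of MES to ESC Mel18 at Hand2 ranged from 1.70 with narrower windows to 1.98 with whole peaks. Ratios with RYBP moved within the rule when windows were widened. The RYBP to MES Mel18 ratio at Hand1 rose from 0.577 to 0.774, and the Hand1 to Hand2 ratio for RYBP from 0.375 to 0.503. The ratio of Cbx2 to MES Mel18 at Hand2 crossed 1 in 2 of its alternatives, at 1.002 with wider windows and 1.001 in the longest merged region. The share of all regions with longer MES Mel18 was 82.3% among peaks with the higher scores, outside its exact Clopper-Pearson 95% interval of 73.2 to 76.6%, which covers counting error only, and the cause was not tested. Of 222 other recomputed values, 209 were unchanged; those that moved were peak numbers at Hand2, ranks taken by width in place of score, and RYBP overlap counted by whole peaks.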

Other observations

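Peaks just outside the windows showed where each locus ended. At Hand2, Cbx2 had 2 more peaks on chromosome 8 (59830403 to 59833338 and 59833408 to 59834305), Ring1b had 1 (59830474 to 59831948) and ESC Mel18 had 1 (59832146 to 59833208). All but the last Cbx2 peak overlapped the end of the widest MES Mel18 peak. Their scores were 203.61 and 74.21 for Cbx2, 104.09 for Ring1b and 74.06 for ESC Mel18, the last at rank 4654 of 6593. RYBP had no peak within 20 kb outside the Hand2 window. On the Hand1 side, a RYBP peak of 2335 bp on chromosome 11 (57614097 to 57616431) lay 3.57 kb before the window, at rank 2502 of 7614, and overlapped no peak of another list.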
